A study of Mus musculus with 4 samples.

Results

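The transcriptome described here is that of cells sorted by flow cytometry from mouse kidney in the control condition of a study of Brg1, the ATPase of the SWI/SNF chromatin remodelling complexes. The control libraries were taken by their sample labels and make up 2 of the 4 libraries of the study. The other 2 libraries, from the Brg1-cKO condition, are not analysed here. Each library was made from RNA of 3000 cells by random priming with a strand-specific kit after purification of mRNA, and was sequenced as single-end reads of 75 bp. The marker used for sorting, the age, sex and strain of the mice, and any allele or Cre driver that the controls carry are not given in the sources used here. Whether the libraries came from separate animals is not stated either, so the spread between them may be technical. With 2 libraries of 1 group no test was made. Every level below is given for control replicates 1 and 2 in that order, or as mean ± SD over them (n = 2).

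In the developing kidney, nephrons arise from a cap of mesenchymal progenitors that surrounds each tip of the branching ureteric bud. Six2, Eya1, Sall1, Pax2 and Wt1 are transcription regulators of these progenitors. Wnt9b from the bud induces them to express Wnt4 and to turn into epithelium, which forms the podocytes of the glomerulus and the tubule, while progenitors secrete Gdnf, which acts on the receptor Ret of the bud. Foxd1-positive stroma, endothelium and macrophages lie around these structures. The series title names Eya1 and Six2 beside the SWI/SNF complexes, and the lists of markers below ask which of these cell types the sorted control cells hold.

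Gene counts summed to 35411905 and 37999342 reads. Values are in CPM, the count of a gene scaled to the same total in each library, where 1 gene is followed between libraries. Where genes are compared with each other, they are levels per length (TPM), which divide the counts by the length of all exons of a gene before scaling. Orders of genes per length hold for that length, and some neighbours change places where the longest transcript is taken as the length, an alternative chosen after seeing the data. Of 21745 protein-coding genes, 9602 (44.2%) reached 10 CPM in both libraries, 13004 (59.8%) reached 1 CPM and 2510 (11.5%) reached 100 CPM. Their median level per length was 5.78. For a gene with no reads the limit is 3 counts, equal to 0.0847 and 0.0789 CPM, which covers counting error only, since the reads carry no molecular identifiers. The libraries differed by more than the counting of independent reads would give, with a chi-square of 9.68 per gene over 20120 genes. Across 14752 genes at 1 CPM or more in both, log2 CPM correlated at r = 0.990, a description of these libraries, since genes are not replicates.

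In both libraries 44.2% of all protein-coding genes reached 10 CPM. The 10 markers that stand for the cell types were all read well above 10 CPM, whatever the cell type. The first 5 are nephron progenitor regulators. Pax2 was at 604 and 604 CPM, Sall1 at 443 and 448 CPM, Wt1 at 369 and 379 CPM, Six2 at 244 and 241 CPM and Eya1 at 187 and 169 CPM. Among all genes in the table, Pax2 ranked 140th, Sall1 276th, Wt1 363rd, Six2 760th and Eya1 1213th by mean CPM. Pax2 also marks the ureteric bud and Wt1 the podocytes, so neither is restricted to progenitors. The order per length depended on the length taken. With all exons, the Six2 level per length was 450.1 ± 5.63 and that of Pax2 439 ± 1.08. Sall1 was at 333 ± 1.74, Wt1 at 237 ± 4.30 and Eya1 at 89.5 ± 6.501 on the same scale. With the longest transcript as the length, Pax2 was at 418 ± 1.35 and Wt1 at 365 ± 6.33, both above Six2 at 345 ± 4.58, with Sall1 at 255 ± 1.14 and Eya1 at 122.8 ± 9.01. Wnt4, the signal that turns progenitors into epithelium, was at 208 and 205 CPM (level per length 194 ± 2.79). Podxl, which encodes the sialomucin podocalyxin of podocytes and also of endothelium, was at 282 and 286 CPM (level per length 203 ± 1.37).

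The remaining 3 markers were listed for stroma, endothelium and ureteric bud, and they were present too. Col1a1, a chain of the fibrillar collagen of stromal cells, was at 1058 and 1046 CPM and ranked 49th of all genes. With a level per length of 630.3 ± 6.21 it stood above each of the 5 progenitor regulators, as it did with the longest transcript (535 ± 5.68). Pecam1, the endothelial adhesion molecule, was at 83.2 and 93.9 CPM (level per length 55.9 ± 4.64). Calb1, a calcium-binding protein gene listed for the ureteric bud, was at 55.2 and 51.8 CPM (level per length 43.4 ± 1.999). Genes listed as markers of stroma, endothelium and ureteric bud were thus read beside those of nephron progenitors in both libraries. A place in a list does not restrict a gene to that cell type, and Calb1 is not taken as restricted to the bud. In a sorted pool, fewer cells of a type and less RNA per cell cannot be told apart.

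On mm10, Six2 lies on chromosome 17 from 85684277 to 85688274 on the minus strand, Eya1 on chromosome 1 from 14168954 to 14310235 (minus), Sall1 on chromosome 8 from 89027235 to 89044162 (minus), Pax2 on chromosome 19 from 44756045 to 44837871 (plus) and Wt1 on chromosome 2 from 105126529 to 105173616 (plus). Wnt4 lies on chromosome 4 from 137277489 to 137299726 (plus), Podxl on chromosome 6 from 31519488 to 31563981 (minus), Col1a1 on chromosome 11 from 94936224 to 94953042 (plus), Calb1 on chromosome 4 from 15881264 to 15908064 (plus) and Pecam1 on chromosome 11 from 106654217 to 106750628 (minus). All are annotated as protein-coding. None of these 10 genes shares exon sequence with another counted gene.

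**Figure D1:**
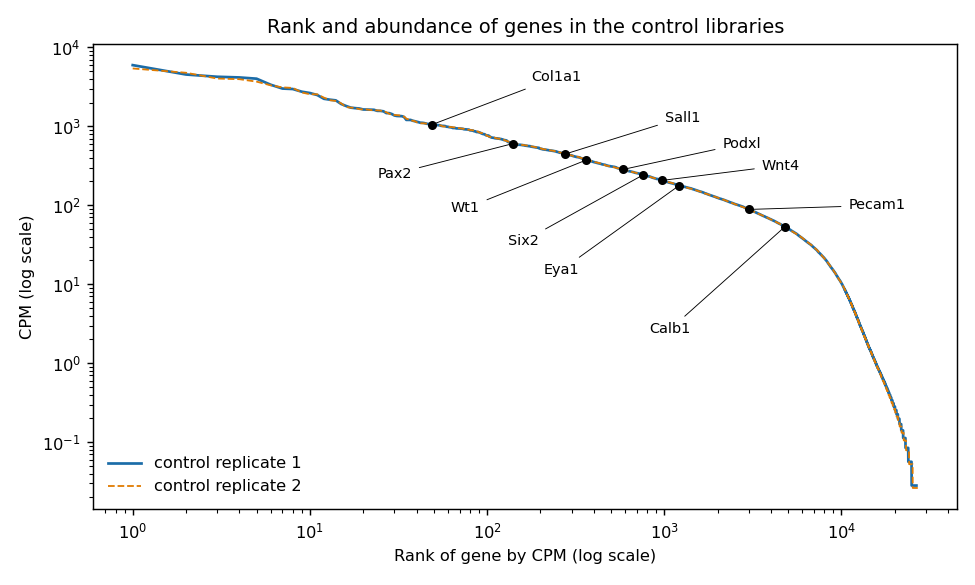
CPM of each gene (log scale) against its rank by CPM (log scale) in control replicate 1 (solid line) and control replicate 2 (dashed line), with the 10 markers as black points at their mean CPM and rank. The lines of the libraries lie on each other over the range that holds the markers, from Col1a1 at rank 49 to Calb1 at rank 4794.

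Base composition at the start sites is described by class of expression, and 6 sequences illustrate the range. They were chosen after their values were seen, support nothing by themselves, and are taken from RefSeq (GRCm38.p6), 200 bases before to 10 bases after the start, 5′ to 3′ on the gene's strand, with each CpG in capitals. Six2 (chr17:85688245-85688454, minus) and Aldh1a2 (chr9:71215589-71215798, plus), which encodes the retinoic acid synthesising enzyme of the stroma, have 24 and 33 CpG. Fos (chr12:85473690-85473899, plus), an immediate early gene, has 14. Col3a1 (chr1:45311338-45311547, plus), a fibrillar collagen gene, has 0 although it is among the most read genes, against the order of the class medians. The examples above 0 and under 1 CPM are Umod (chr7:119479253-119479462, minus) and Slc12a3 (chr8:94329008-94329217, plus), with 0 and 3 CpG. Umod encodes uromodulin of the thick ascending limb and Slc12a3 the thiazide-sensitive transporter of the distal tubule.
Six2: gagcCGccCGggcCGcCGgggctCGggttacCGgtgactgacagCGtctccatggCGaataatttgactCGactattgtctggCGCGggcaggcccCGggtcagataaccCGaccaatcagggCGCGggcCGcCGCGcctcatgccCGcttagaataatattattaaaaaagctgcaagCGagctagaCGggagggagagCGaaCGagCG
Aldh1a2: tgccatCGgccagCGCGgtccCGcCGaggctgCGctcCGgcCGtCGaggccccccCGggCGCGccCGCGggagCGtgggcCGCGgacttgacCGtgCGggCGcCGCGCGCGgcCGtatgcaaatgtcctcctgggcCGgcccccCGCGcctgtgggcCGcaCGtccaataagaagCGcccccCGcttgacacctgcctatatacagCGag
Fos: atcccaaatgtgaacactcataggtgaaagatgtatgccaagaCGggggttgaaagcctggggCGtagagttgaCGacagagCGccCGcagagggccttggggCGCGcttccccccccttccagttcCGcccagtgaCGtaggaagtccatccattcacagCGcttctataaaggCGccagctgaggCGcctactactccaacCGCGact
Col3a1: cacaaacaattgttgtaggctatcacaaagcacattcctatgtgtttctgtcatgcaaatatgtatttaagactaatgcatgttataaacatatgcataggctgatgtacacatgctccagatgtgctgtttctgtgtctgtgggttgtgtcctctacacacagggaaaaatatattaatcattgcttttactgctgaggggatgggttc
Umod: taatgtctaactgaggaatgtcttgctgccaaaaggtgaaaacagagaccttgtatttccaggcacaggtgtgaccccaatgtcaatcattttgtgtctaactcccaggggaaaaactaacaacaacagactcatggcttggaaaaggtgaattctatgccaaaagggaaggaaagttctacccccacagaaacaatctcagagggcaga
Slc12a3: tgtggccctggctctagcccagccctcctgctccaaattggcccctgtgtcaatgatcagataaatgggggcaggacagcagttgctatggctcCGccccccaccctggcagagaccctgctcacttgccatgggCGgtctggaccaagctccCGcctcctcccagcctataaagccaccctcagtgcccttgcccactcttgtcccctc

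Aldh1a2 was at 501 and 513 CPM and Col3a1, which has no CpG in the printed stretch, at 951 and 948 CPM. Umod had 5 and 0 counts and Slc12a3 0.282 and 0.105 CPM. Over the 13798 protein-coding genes with a single start in that table, the median number of CpG in the 300 bases around the start (250 before, 50 after) was higher in each higher class of expression. The median was 2 in the 2867 genes with 0 counts in both libraries, 5 in the 2621 genes above 0 and under 1 CPM, and 13 in the 2138 genes from 1 to 10 CPM. It was 22 in the 4547 genes from 10 to 100 CPM and 26 in the 1625 genes at 100 CPM or more, against 14 over all of them. The dinucleotide CG reads the same on both strands. The letters TATAAA, searched on the gene's strand from 42 to 19 bases before the start, were more frequent in the lower classes. They were in 7.12% of genes with 0 counts, in 0.682% of genes from 10 to 100 CPM and in 1.35% of genes at 100 CPM or more, against 3.10% of all. Fos carries them 33 and Slc12a3 32 bases before the start, and the TATAAA of Col3a1, 117 bases before it, lies outside the searched stretch. A match of letters is a description and not a shown site.

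Nephron progenitor genes had the highest median level per length of the 12 cell type lists. Of 20 members, 18 reached 10 CPM in both libraries, where 44.2% of all protein-coding genes did, and 12 reached 100 CPM, where 11.5% did. The list's median level per length was 95.0, and its counts summed to 3870.3 and 3840.1 CPM. Besides Six2, Pax2 and Sall1, the members that led per length were Uncx, a homeobox gene of progenitors, at 396 ± 12.8, and Spock2, a secreted proteoglycan, at 313 ± 12.7. Gdnf, the ligand of Ret, was at 120.0 and 136 CPM, Itga8, an integrin chain needed for Gdnf expression, at 146 and 144 CPM, and Osr1, a zinc finger gene of early kidney mesenchyme, at 53.3 and 52.4 CPM. Cited1, the co-activator that marks the least committed progenitors, was at 20.1 and 17.5 CPM with a level per length of 42.1 ± 4.17, below Six2 by more than the SD of either. Tmem100, a membrane protein gene, was under 10 CPM in both libraries, at 7.26 and 9.03 CPM.

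The members of the Six2 and Eya1 families were read at very different levels. Six2 led its family per length at 450.1 ± 5.63, ahead of Six5, at 87.7 and 92.3 in the 2 libraries, and Six4 at 11.8 ± 0.117. Six3 had 6 and 2 counts and Six6, an eye regulator, 0 in both. All 4 Eya phosphatase genes were read, with Eya1 at 89.5 ± 6.501, Eya3 at 64.6 ± 3.67, Eya4 at 36.3 ± 1.09 and Eya2 at 32.6 ± 0.460 per length. Each of these neighbours in order differed by more than the SD of either. Sall1 at 333 ± 1.74 was followed by Sall2 at 108 ± 2.09, with Sall4, a gene of pluripotent cells, at 0.995 ± 0.0442. Dach1, a co-repressor that works with Six2 and Eya1, was at 88.7 ± 0.601 against 3.03 ± 1.20 for Dach2. Of these 16 genes, 11 reached 10 CPM in both libraries, where 44.2% of all protein-coding genes did.

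Early nephron genes, which mark the pretubular aggregate and renal vesicle, were also widely expressed. Of 20 members 19 reached 10 CPM in both libraries and 8 reached 100 CPM, against 44.2% and 11.5% of all protein-coding genes. The list's median level per length was 72.8. The highest were Sfrp2, a secreted Wnt modulator, at 449 ± 6.13 per length and Ccnd1, which encodes cyclin D1, at 385 ± 1.90. Jag1, a Notch ligand, was at 224 and 224 CPM, and Lhx1, a homeobox gene of the renal vesicle, at 136 and 139 CPM. Pax8, a regulator of nephron epithelium, was at 165 and 169.5 CPM. Fgf8, a survival signal of the renal vesicle, had only 24.96 and 24.7 CPM, and its level per length of 72.3 ± 0.716 was near the list's median. Hes5, a Notch target, was nearly silent at 6 and 7 counts. Dkk1, a Wnt inhibitor, was the member at 10 CPM or more whose libraries lay furthest apart, at 18.1 and 10.7 CPM.

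Podocyte genes reached 10 CPM in both libraries in 14 of 16 cases, against 44.2% of all protein-coding genes. The genes highest in the list were, however, those that other cells share. Actn4, an actin crosslinker of many cell types, was at 345 ± 2.90 per length, and Foxc2, a forkhead gene of podocytes and of kidney mesenchyme, at 337 ± 3.29. Podxl and Tcf21 (148 ± 5.19), a gene of podocytes and stroma, came next. The slit diaphragm was read at a lower level. Nphs1, which encodes nephrin, was at 22.0 and 22.4 CPM (level per length 13.2 ± 0.140). The list's median level per length was 43.0.

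Genes of the mature tubule were mostly near or below the level of the typical gene. The list's median level per length was 3.13. Of 16 members 3 reached 10 CPM in both libraries and 0 reached 100 CPM, against 44.2% and 11.5% of all protein-coding genes. The 3 were Cdh16, a kidney cadherin, at 54.4 and 55.1 CPM, Hnf4a, the regulator of proximal tubule genes, at 25.5 and 28.4 CPM, and Lrp2, the endocytic receptor megalin, at 67.9 and 62.7 CPM. The next per length were Pdzk1, a scaffold of brush border transporters, at 6.64 and 5.05 CPM, and Fxyd2, a subunit of the sodium pump, at 6.41 and 6.34 CPM. Transporters of the segments stayed low, with Slc34a1 of the proximal tubule at 2.82 and 3.03 CPM and Slc12a1 of the thick ascending limb at 4.29 and 4.89 CPM. Kap, an androgen-regulated gene of the adult proximal tubule, had 0 counts in both.

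Ureteric bud genes were intermediate, with a median level per length of 25.1. In both libraries 11 of 16 reached 10 CPM and 1 reached 100 CPM, against 44.2% and 11.5% of all protein-coding genes. The highest were Etv4 (181 ± 2.56), a target of Ret signalling in the bud tip, the keratin gene Krt18 (101 ± 2.82), the homeobox genes Emx2 (72.4 ± 5.12) and Hoxb7 (68.2 ± 10.8), and Etv5 (67.4 ± 2.64), all per length. The genes that define the bud more narrowly were read at lower levels. Ret was at 21.2 and 22.5 CPM, Wnt11, a signal of the bud tip, at 23.2 and 18.8 CPM, and Gata3 at 29.0 and 32.0 CPM. Wnt9b, the inducing signal, was at 6.78 and 9.58 CPM and Wnt7b, of the bud trunk, at 3.93 and 5.45 CPM. Aqp2, the water channel of the mature collecting duct, had 9 and 0 counts.

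The counts of the stroma list summed to 4662.8 and 4640.7 CPM, with Col1a1, Col3a1 and Col1a2 as its members with most CPM. Summed per length, the list stood at 2983 against 3152 for the nephron progenitor list, so the order of these sums depends on the scale. Of 20 members 17 reached 10 CPM in both libraries and 10 reached 100 CPM, against 44.2% and 11.5% of all protein-coding genes. The list's median level per length was 67.2. Aldh1a2 was the highest per length at 880.1 ± 13.3, above Col1a1, Col3a1 (380.4 ± 1.58) and Col1a2 (188 ± 1.33). Foxd1, the forkhead gene that defines stromal progenitors, was at 182 and 173 CPM, and its level per length of 138 ± 5.14 lay below that of Six2. Meis2, Meis1, Pdgfra, Pdgfrb and Ntn1, a homeobox pair, 2 growth factor receptors and the guidance cue netrin 1, all exceeded 100 CPM. Acta2, smooth muscle actin, was at 16.5 and 19.6 CPM (level per length 32.4 ± 3.88), Tagln, another smooth muscle gene, at 1.02 and 0.605 CPM and Ren1, renin, at 0.904 and 1.24 CPM. Col3a1 shares exon sequence with a predicted gene on its strand, so its counts are uncertain.

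All 16 endothelial genes were read at 1 CPM or more in both libraries, at moderate levels. Of these 16 members 14 reached 10 CPM in both libraries. Among all protein-coding genes 59.8% reached 1 CPM and 44.2% reached 10 CPM in both. The list's median level per length was 37.0, and its counts summed to 924 and 936 CPM. Per length the highest were Plvap, a protein of fenestrae, at 186 ± 0.936, the tight junction gene Cldn5 at 185 ± 11.3, the cadherin gene Cdh5 at 149.9 ± 6.58, the receptor kinase gene Tie1 at 62.8 ± 0.0246 and Eng, a co-receptor of TGF-beta, at 61.9 ± 2.55. Plvap and Cldn5 did not differ beyond their SDs. Kdr, a receptor of VEGF, was at 109.8 and 119 CPM. The transcription factor genes of the list were lower in CPM, with Sox18 at 11.2 and 9.03 CPM and Sox17 at 6.04 and 6.66 CPM.

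Macrophage and other leukocyte genes had a median level per length of 25.3, against 5.78 over all protein-coding genes. Of 16 members 9 (56.2%) reached 10 CPM in both libraries, where 44.2% of all protein-coding genes did, and 0 reached 100 CPM, and the summed level was 255 and 257 CPM. The highest per length were the lysosomal Cd68 at 71.8 ± 4.89, lysozyme Lyz2 at 67.6 ± 5.63 and the complement genes C1qb (63.5 ± 5.90), C1qc (37.3 ± 6.22) and C1qa (36.0 ± 2.45). Csf1r, the receptor on which macrophages depend, was at 37.1 and 39.7 CPM, and Ptprc, the common leukocyte antigen, at 15.8 and 11.7 CPM. Ptprc (2.95 ± 0.637) and Itgam (1.001 ± 0.775), an integrin chain of myeloid cells, were the 2 members below 5.78 per length. With the longest transcript as the length, Ptprc was at 7.22 ± 1.56, above the median of 5.61 over all protein-coding genes, and Itgam was the 1 member below it.

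Red cell RNA was at the limit of detection. Of 10 erythroid genes 0 reached 1 CPM, which 59.8% of all protein-coding genes reached in both libraries. Hba-a1, Hba-a2, Hbb-bs and Hbb-bh1 had 0 counts in both libraries. Globin copies that are nearly identical can lose reads that align to more than 1 place. Erythroid genes without such a copy were also nearly unread, with Alas2, the heme synthesis enzyme of red cells, at 5 and 25 counts and Slc4a1, the anion exchanger, at 11 and 16. Of the 10 neuron and glia genes only Elavl4, a neuronal RNA-binding protein gene, reached 10 CPM in both (18.6 and 22.3 CPM). Sox10, of glia, had 0 and 5 counts. In both libraries 44.2% of all protein-coding genes reached 10 CPM. The only skeletal muscle gene of 8 past that line was Des, the intermediate filament gene desmin, which smooth muscle and mesenchymal cells also use, at 113 and 124 CPM. Myod1 had 5 and 0 counts and Myf5 0, both of them regulators of muscle fate. No adrenal or gonad gene of 8 reached 10 CPM in both libraries, against 44.2% of all protein-coding genes. Star, the cholesterol carrier of steroid synthesis, came closest at 9.70 ± 2.41 CPM.

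**Figure D2:**
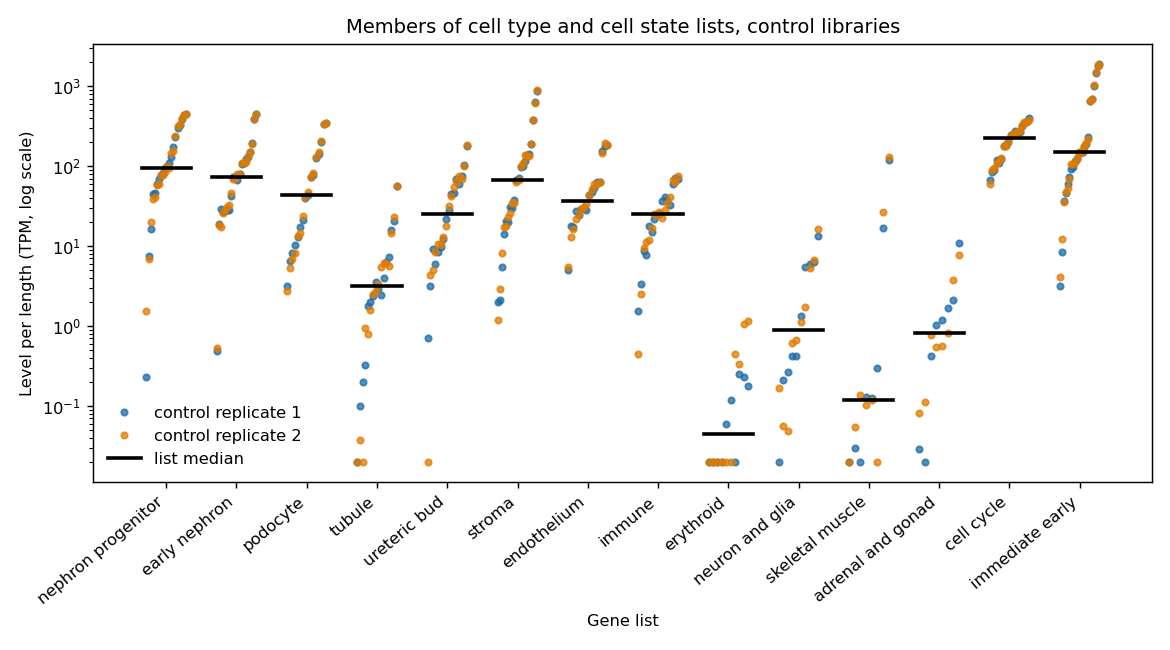
Level per length (TPM, log scale) of every member of 14 gene lists, with 1 point per gene and library (blue for control replicate 1, orange for control replicate 2), genes in order of level, and a bar at the list's median. Genes at 0 are drawn at the lower edge. The progenitor (median 95.0), early nephron (72.8) and stroma (67.2) lists stand above the tubule list (3.13), and the erythroid list (0.0447) lies lowest.

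Ligands and receptors of the signalling between bud, progenitors and stroma were both read. Of 24 niche signalling genes 21 reached 10 CPM in both libraries, against 44.2% of all protein-coding genes. The list's median level per length was 99.5. Among ligands, Igf2 was the highest at 1779 ± 49.4 per length, followed by Wnt4, Bmp7 (154 ± 2.36), which sustains progenitors, Jag1 (151 ± 0.481) and Gdnf (137 ± 11.6). Fgf9, a progenitor survival factor, was at 7.46 and 6.89 CPM and its relative Fgf20 at 0.904 and 1.66 CPM. Among receptors, Fgfr1 was at 268 ± 3.32 per length, Fzd2, a Wnt receptor, at 187 ± 0.719, Notch2 at 116 ± 0.468, Bmpr1a at 109 ± 6.28 and Fgfr2 at 81.3 ± 3.99. Gfra1, the co-receptor of Gdnf, was at 62.1 ± 0.811 per length and Ret at 12.7 ± 0.529. Ctnnb1, the gene of beta-catenin, was at 938 and 914 CPM. The stromal cadherin Fat4 was at 327 and 345 CPM, and Dchs1, its binding partner, at 315 and 318 CPM.

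Chaperones, translation factors and parts of the cytoskeleton were among the products of the genes with the most reads. Protein-coding genes outside the mitochondrial genome were led by Hsp90ab1, a chaperone, at 4525 and 4763 CPM, Eef1a1 at 3003 and 3109.7 CPM and Eef2 at 2965 and 3059.7 CPM, both translation elongation factors. Nedd4, a ubiquitin ligase, followed at 2741 and 2679 CPM, then Igf2 at 2637 and 2542 CPM, Actb at 2489 and 2546 CPM and Tubb5, a tubulin, at 2230.1 and 2305 CPM. The 25 highest of these protein-coding genes also included the RNA-binding proteins Ncl, Srrm2, Sfpq, Hnrnpa2b1 and Pabpc1, the initiation factors Eif4g1 and Eif4g2, the chaperone Hspa8, the matrix genes Col4a1 and Vcan, the actin crosslinker Flna, and Grb10, Ptma, Prrc2a, Rpl4 and Peg3. The 100 protein-coding genes with most CPM were classed by name pattern only. By name, 11 were ribosomal protein genes, 9 collagens or other large matrix proteins and 7 genes of the mitochondrial genome. Heat shock or chaperone names and hnRNP names made up 6 each, and translation factors 5. The heat shock pattern also takes the name of the perlecan gene Hspg2 and leaves out Serpinh1, and the ribosomal pattern takes Rack1. Per length the order changed, and Rplp1, a ribosomal protein, came first of the protein-coding genes outside the mitochondrial genome at 7598 ± 251. Below it stood Hsp90ab1 at 6087 ± 209 and Eef1a1 at 4819.5 ± 109. The ribosomal protein genes Rpl8, Rpl4, Rpl36, Rps15, Rplp0 and Rplp2 were also among the 25 highest of these genes per length, with the nucleolar Npm1, the adaptor Ywhae, the growth-linked Tpt1 and the collagen chaperone Serpinh1. Mdk, the heparin-binding growth factor midkine of embryonic tissues, was at 2576 ± 81.9 per length, and Marcksl1, an actin regulator, at 2366 ± 9.67. The 10 genes with most counts held 3.70% ± 0.0762 of all gene counts and the first 1000 held 44.5% ± 0.0121.

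Of 494 genes in 93 transcription factor name families, 283 (57.3%) reached 10 CPM in both libraries, against 44.2% of all protein-coding genes. Immediate early and general factors led them per length, with Egr1 at 1888 ± 25.5, Jun at 1834 ± 31.2, the cold shock protein gene Ybx1 at 1665 ± 3.76 and Fos at 1478 ± 28.8. Junb, the stress factor gene Atf4 and Fosb came next, then Ybx3, the E protein gene Tcf3, and Id1 and Id2, inhibitors of E proteins. Six2 was 12th and Pax2 13th. With the longest transcript as the length, Ybx1 led ahead of Egr1, Jun and Fos, Pax2 was 13th, Wt1 16th and Six2 19th. Srf (428 ± 20.9), Id3 (420.1 ± 0.940) and Sox12 (418 ± 18.7) followed per length, and neither Pax2 and Srf nor Id3 and Sox12 differed beyond their SDs. Uncx, Nr2f2 (377 ± 2.17), an orphan nuclear receptor of mesenchyme and veins, Foxc2, Tead2 (333 ± 2.44), which reads Hippo signalling, and Sall1 stood between 333 and 396 per length. Further genes among the first 30 were Sox4, Foxp4, Wt1, Sox11, Nr4a1, Tcf7l1, E2f4 and Smad4, from 254 down to 195.

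**Figure D3:**
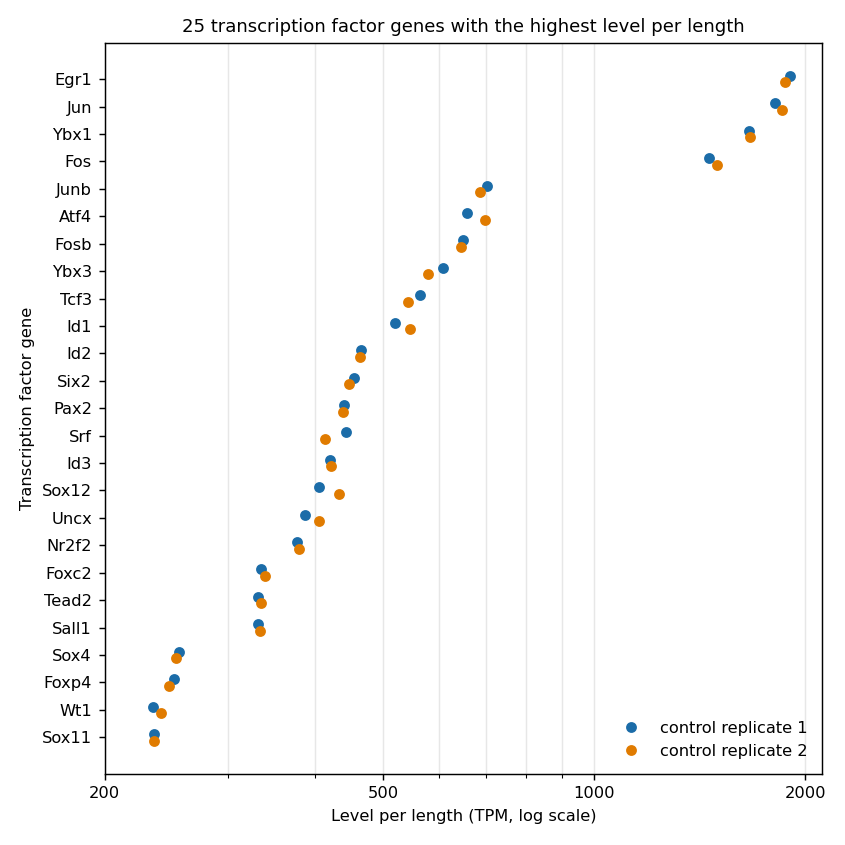
Level per length (TPM, log scale) of the 25 transcription factor genes with the highest mean, with 1 point per library (blue for control replicate 1, orange for control replicate 2). Egr1, Jun, Ybx1 and Fos stand apart at 1478 or more on average, and Six2 and Pax2 sit in the 12th and 13th rows.

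Hox genes, whose order in their clusters follows their place of expression along the body axis, were read in the central and posterior groups and hardly in the most posterior one. Of 39 Hox genes 28 (71.8%) reached 10 CPM in both libraries, against 44.2% of all protein-coding genes. Summed per paralog group, the level per length was highest in group 10 (469 ± 3.77, 3 genes) and group 9 (407 ± 6.83, 4 genes). Group 6 (314 ± 15.8, 3 genes) followed. The group 11 genes, which the kidney needs to form, summed to 188 ± 11.1, with Hoxd11 at 116 and 100.4 CPM, Hoxa11 at 34.8 and 33.7 CPM and Hoxc11 at 14.4 and 14.8 CPM. Group 12 summed to 29.5 ± 0.185, all of it from Hoxd12, since Hoxc12 had 0 counts. Group 13 summed to 3.94 ± 1.10, with Hoxb13 at 0 counts, Hoxc13 at 14 and 0 counts and Hoxd13 at 1.75 and 1.82 CPM. The anterior group 1 summed to 13.5 ± 3.39. The 5 highest genes per length were Hoxa5 (188 ± 4.31), Hoxb6 (184 ± 7.94), Hoxb9 (180.1 ± 3.97), Hoxc10 (173 ± 1.80) and Hoxa10 (166 ± 10.9). Among these, Hoxa5 and Hoxb6 did not differ beyond their SDs, nor did Hoxb6 and Hoxb9, or Hoxc10 and Hoxa10. With the longest transcript as the length, Hoxa10 (162 ± 10.8) stood above Hoxa5 (144 ± 3.42). Of the 39, 9 share exon sequence with another gene of the same strand, and reads in those parts can be lost as ambiguous.

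**Figure D4:**
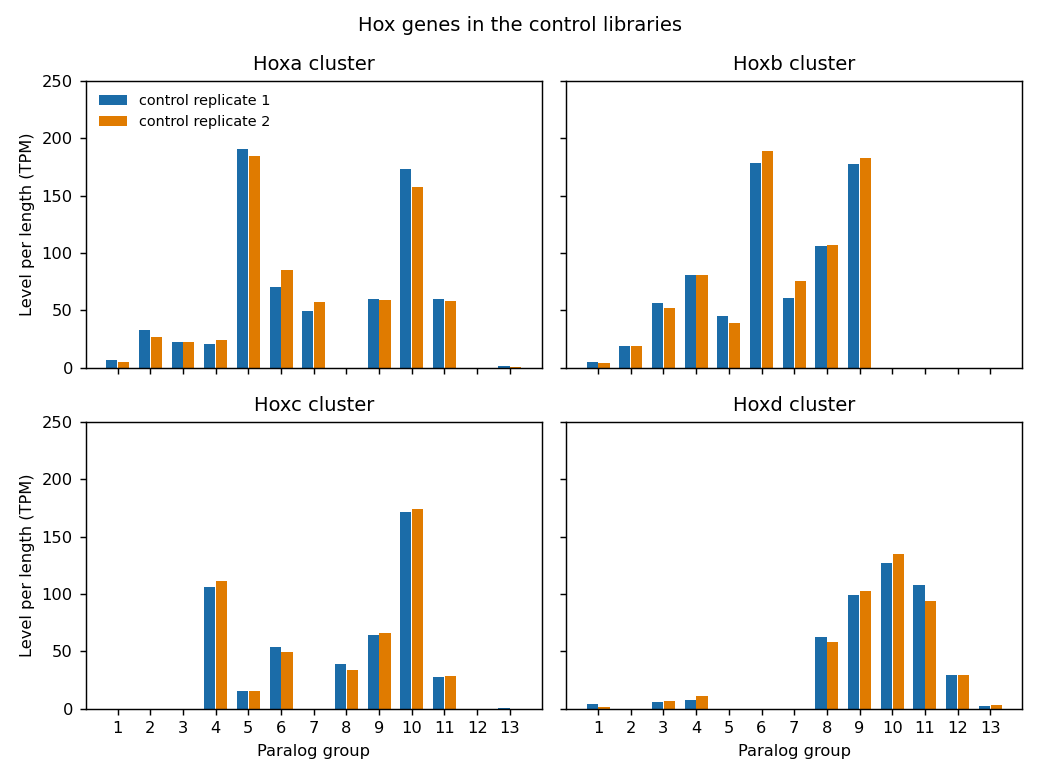
Level per length (TPM, linear scale from 0) of each Hox gene by paralog group in the 4 clusters, with 1 bar per library (blue for control replicate 1, orange for control replicate 2). Hoxc10 and Hoxd10 have the highest bars of their clusters, and Hoxa10 stands below Hoxa5. Group 9 is uneven, with Hoxb9 at 180.1 on average but Hoxa9 at 59.8 and Hoxc9 at 65.5. Bars nearly vanish in group 13.

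The subunits of the SWI/SNF complexes, which slide or evict nucleosomes, were nearly all expressed. Of 27 subunit genes 25 reached 10 CPM in both libraries and 15 reached 100 CPM, against 44.2% and 11.5% of all protein-coding genes. The list's median level per length was 73.8. Of the alternative ATPases, Smarca4, which encodes Brg1, was at 907 and 951 CPM and Smarca2, which encodes Brm, at 84.2 and 83.2 CPM. Per length Smarca4 was at 564 ± 17.7 against 23.1 ± 0.250 for Smarca2, a ratio of 24.5. With the longest transcript as the length they were at 439 ± 13.5 and 42.6 ± 0.495, a ratio of 10.3. Smarca4 was the highest gene of the list, ahead of the DNA-binding Arid1a at 299 ± 5.40 and the scaffolds Smarcc1 at 298 ± 3.36 and Smarcc2 at 243 ± 1.31. The core subunit Smarcd1 followed at 219 ± 8.54. Arid1a and Smarcc1 did not differ beyond their SDs. Arid1b, the alternative to Arid1a, was at 66.9 ± 0.565, and Pbrm1 and Arid2, of the PBAF form of the complex, were at 164 ± 7.07 and 107 ± 0.429. The 2 members not at 10 CPM in both, Dpf1 (10.3 and 9.87 CPM in the 2 libraries) and Actl6b (1.21 and 0.316 CPM), belong to the neuronal form. Dpf3, also a subunit of that form, passed at 19.5 and 19.3 CPM. Smarca4 shares exon sequence with a predicted gene on its own strand, so its counts may miss reads.

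All 18 cell cycle genes exceeded 10 CPM, which 44.2% of all protein-coding genes reached in both libraries. The list's median level per length was 223, the highest of the 14 lists drawn in the plot of list members. Mki67, the antigen of cycling cells, was at 1013 and 968 CPM and Top2a, the topoisomerase of dividing cells, at 844 and 818 CPM. Replication helicase genes were also high, with Mcm6 at 413 and 419 CPM, Mcm3 at 305 and 316 CPM and Mcm5 at 273 and 282 CPM. Genes of replication and of mitosis were both present, as Rrm2, a subunit of ribonucleotide reductase, was at 189.5 and 196 CPM and Ccnb1, a mitotic cyclin, at 89.3 and 96.1 CPM.

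Immediate early genes, which are switched on within minutes by growth factors and also by the handling of cells, were among the most read of all. Of 22 members 20 reached 10 CPM in both libraries, against 44.2% of all protein-coding genes. The list's median level per length was 149, and its counts summed to 7694.5 and 7734.2 CPM. Egr1 alone was at 2171 and 2136 CPM, Jun at 1468 and 1508 CPM, Fosb at 1031 and 1027 CPM and Fos at 871 and 898 CPM. Ier2 was at 389 and 405 CPM. Values in the 2 libraries were close for each of these 5. The heat shock genes Hspa1a and Hspa1b were low, at 2.37 and 3.08 CPM and 5.99 and 8.76 CPM, but they are near-identical copies and their counts are uncertain. The part of dissociation and sorting in these levels was not tested.

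Imprinted growth genes, a list added after the first values were seen, were prominent. H19, the noncoding neighbour of Igf2, had the most reads of any noncoding gene at 3362 and 3302 CPM. Igf2, the growth factor, was at 2637 and 2542 CPM, its clearance receptor gene Igf2r at 449 and 445 CPM, Grb10, a brake on insulin-like signalling, at 1633 and 1607 CPM, Mest at 1204 and 1210.4 CPM, and Cdkn1c, a cell cycle inhibitor, at 564 and 544 CPM. Of 20 members 17 reached 10 CPM in both libraries, against 44.2% of all protein-coding genes and 18.7% of all genes. Of the imprinted cluster on chromosome 12, Dlk1 had 0 counts in both libraries, Meg3 1 and 0 and Rian 1 and 2, while Mirg was at 5.11 and 5.11 CPM and Dio3 at 2.46 and 2.16 CPM. Meg3 shares exons with other counted genes, and why Dlk1, Meg3 and Rian were nearly unread was not tested.

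Basement membrane genes, added in the same way, were led by the widespread collagen and laminin chains. Col4a1 was at 1617 and 1591 CPM and Col4a2 at 887 and 888 CPM, whereas Col4a3 was at 3.30 and 1.21 CPM and Col4a4 at 6.13 and 5.55 CPM, the chains that replace them in the mature glomerulus. Col4a5, their partner, was at 102 and 96.4 CPM. Among laminin chains, Lamc1 was at 909.6 and 932 CPM, Lamb1 at 636 and 665 CPM, Lama1 at 275 and 275 CPM and Lama5 at 241 and 234 CPM. Lamb2, which is the beta chain of the mature glomerulus, was at 129 and 142 CPM. Per length Lamb1 stood at 258 ± 7.70 and Lamb2 at 87.6 ± 5.87, apart by more than their SDs. Of 18 members 15 reached 10 CPM in both libraries, where 44.2% of all protein-coding genes did.

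RNA of both sexes' marker genes was in each library. Xist, the noncoding RNA of the inactive X chromosome, was at 246 and 219.7 CPM. The Y-linked Ddx3y was at 76.8 and 79.9 CPM, Kdm5d at 41.7 and 46.6 CPM, Eif2s3y at 27.3 and 25.3 CPM and Uty at 17.5 and 20.5 CPM. Each of the 5 genes was above 10 CPM in both libraries, against 44.2% of all protein-coding genes and 18.7% of all genes.

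Reads that aligned to several places were given to no gene, so a low count in this table does not always show low expression. All 10 housekeeping genes listed reached 10 CPM in both libraries, where 44.2% of all protein-coding genes did, but unevenly. Gapdh, a gene that every cell uses and that has many processed copies in the genome, had only 34.1 and 30.1 CPM, and Rpl24, a ribosomal protein, had 0.621 and 1.13 CPM beside 1568 and 1541 CPM for Rpl4. Such genes are reported as uncertain. In the mitochondrial genome mt-Cytb was at 5949.5 and 5396 CPM and mt-Co1 at 4238 and 4023 CPM, but mt-Co2 was at 12.96 and 26.0 CPM and mt-Co3 at 4.63 and 11.8 CPM. Parts of the mitochondrial genome have near-identical nuclear copies, and how the reads were shared out was not tested. Of 176 members of the cell type lists, 14 share exon sequence with a gene of the same strand and 35 with one of the opposite strand.

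The spread between the libraries was small for expressed genes and large for scarce ones. Among 20120 genes with a mean of 10 counts or more, 3213 (16.0%) differed by 2-fold or more in CPM. Nearly all were scarce, as 2 of 7462 genes from 10 to 100 CPM did so, and 0 of the 2553 genes from 100 to 1000 CPM. The median coefficient of variation was 18.6% from 1 to 10 CPM, 5.67% from 10 to 100 CPM and 2.71% from 100 to 1000 CPM, where counting alone would give 6.63%, 1.89% and 0.858%. The 2 genes from 10 to 100 CPM were mt-Co2 and the Y-linked predicted gene Gm47283, at 14.1 and 51.4 CPM, which was named after its value was seen. The 10 named protein-coding genes furthest apart were the mitochondrial mt-Atp6, mt-Co3 and mt-Co2, with B4galnt1, Fbxw4, Rassf9, Ovol1, Hint2, Acacb and Cox11. B4galnt1, a ganglioside synthesis enzyme, was at 4.91 and 10.9 CPM and Fbxw4, an F-box gene, at 14.1 and 7.24 CPM. Ovol1, an epithelial transcription factor, was at 10.4 and 5.50 CPM. None of these genes belongs to a cell type list.

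**Figure D5:**
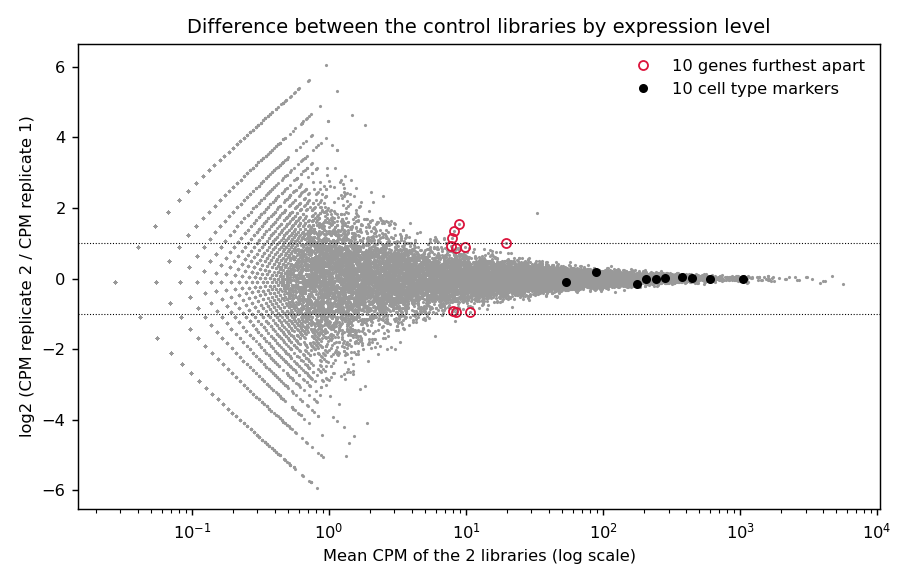
Log2 of the ratio of CPM in control replicate 2 to control replicate 1 against the mean CPM (log scale), with 1 grey point per gene read in both libraries, dotted lines at 2-fold, black points for the 10 cell type markers and red circles for the 10 named genes furthest apart. The markers lie near 0 and the spread widens below 10 CPM.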

How the data were processed

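RNA was sequenced from sorted mouse kidney cells, 3000 cells per sample. The deposited values are whole-number read counts per gene, 1 column per library. Per the submitters' processing notes, TopHat, DESeq2 and the mm10 build were used. How reads were counted, with which annotation and strand setting, is not given in the sources used here, nor are tool versions. Reads given to no gene made up 32.4% and 31.8% of all reads, among them 9.06% ± 0.00425 aligned to several places and 3.11% ± 0.0312 ambiguous between genes, and were left out. If strand was ignored in counting, reads of a gene and its antisense neighbour cannot be told apart.

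Of 52636 gene identifiers in each file, 52403 matched a symbol and position in GENCODE mouse M21, which is on the same build. CPM is a count over the library's total gene counts. Levels per length divide counts by the union of exons and scale to the same total, over genes with at least 200 exon bases. A gene counts as expressed at 10 CPM or more in both libraries. The 2-fold count took genes with a mean of 10 counts or more. Tools were Python 3.11.15, pandas 2.3.3 and, for scaling factors, edgeR 4.0.16 in R 4.3.3. The functions were checked on simulated counts with 200 genes changed.

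Groups came from the sample titles. The rule for named genes covers the 25 highest protein-coding genes by CPM and by level per length, the 30 highest transcription factor genes, the 5 highest members of each list per length and those at 0, the 10 markers, Hox genes and the 10 genes furthest apart. Some of these genes are not reported here, and other list members were named for their known roles. The members and lists were chosen with earlier results of these data known, and 2 of the 21 lists (imprinted, basement membrane) were added after seeing these values. Alternatives were other thresholds, scalings, a single-transcript length and each library alone.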

Additional observations from a re-analysis of the deposited data

How the results depend on the processing

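The counts of expressed genes and the 2-fold count moved by less than 1.5 times under 148 of the 159 combinations of result and setting. Many settings only rescaled the libraries slightly and could hardly move a count, so this tally is a weak measure of robustness. The exceptions were small lists and the 2-fold count. Genes 2-fold or more apart numbered 3213 among genes with a mean of 10 counts or more, 108 at a mean of 100 counts or more and 9431 at a mean of 1 count or more. At 5 CPM in place of 10 CPM, 5 tubule genes passed in place of 3, 3 neuron and glia genes in place of 1, 2 skeletal muscle genes in place of 1 and 1 adrenal or gonad gene in place of 0. At 20 CPM, 5 immune genes passed in place of 9 and 0 neuron and glia genes. At a level per length of 10, 2 skeletal muscle genes passed. With each library left out in turn, 1 to 2 skeletal muscle genes and 0 to 1 adrenal or gonad genes passed. Scaling by TMM or RLE moved neither library by more than 0.121%. With the longest transcript as the length, list medians became 0.767 to 1.20 times the values given, and the early nephron (66.7) and stroma (73.8) medians changed places. The same change of length, chosen after seeing the data for single genes, put Pax2 and Wt1 above Six2 and lowered the Smarca4 to Smarca2 ratio from 24.5 to 10.3. No paired analysis was possible because only 1 group is described and no comparison between groups was made. With 2 libraries, an SD has 1 degree of freedom, and genes from 1 to 10 CPM had a median coefficient of variation of 18.6%.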
